A study of Mus musculus with 12 samples.

Results

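The laminin and integrin genes were taken as every listed gene whose symbol was Lama, Lamb or Lamc followed by 1 digit, Itga followed by digits or letters, or Itgb followed by 1 digit. The rule found 37 of the 26264 listed genes, which were 11 laminin chains and 26 integrin subunits, and 33 of the 37 passed the filter on low counts, as did 16465 genes in all. The other 4, Lama2, Lamc3, Itga8 and Itgad, had too few reads to test.

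Bulk RNA was measured in mouse endometrial epithelial organoids, hollow cultures grown from the lining epithelium of the uterus, embedded at passage 3 in 80% Cultrex, a basement membrane extract that itself contains laminin. The 12 libraries formed 4 groups of 3: organoids lacking Esr1, the gene for estrogen receptor alpha (knockout, KO), with estrogen, KO organoids without estrogen, wild-type (WT) organoids with estrogen, and WT organoids without estrogen. The labels give neither the dose or duration of estrogen nor the Esr1 allele, and they describe mice of several postnatal ages without tying a library to an age. They also state that organoids of either genotype showed no response to the hormone. They do not say whether libraries of 1 group came from separate animals or cultures, so p-values measure the spread between these libraries.

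Laminins are trimers of an alpha, a beta and a gamma chain that assemble into the sheet-like basement membrane under an epithelium. Integrins are pairs of an alpha and a beta subunit that span the cell surface and hold the cell to laminins, collagens, fibronectin or other cells. In stratified epithelia, a laminin that holds the alpha3 and beta3 chains (Lama3, Lamb3) and integrin alpha6 beta4 (Itga6, Itgb4) form the hemidesmosome, which ties the keratin filaments of basal cells to the basement membrane, and in the uterus the epithelial basement membrane is remodelled when an embryo implants.

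Library totals ran from 75654191 to 108665407 counted reads, so that 1 read was worth 0.00860 to 0.0127 CPM (counts per 1e+06 counted reads after TMM scaling, the level used throughout). Laminin and integrin genes took 0.392% to 0.449% of the counts in the KO libraries and 0.555% to 0.762% in the WT libraries, and these ranges did not overlap. Esr1 itself averaged 19.7 ± 0.510 CPM in KO with estrogen, 16.4 ± 0.402 in KO without, 318 ± 33.5 in WT with estrogen and 308 ± 50.2 in WT without (SD, n = 3 each). Epithelial markers were high in every library, with the sum of 6 simple epithelial keratin and adhesion genes at 3457 to 4320 CPM in KO and 4416 to 5161 in WT. A sum of 8 basal cell markers, Krt5 and Krt14 among them, lay at 4501 to 10961 CPM in KO and at 2.03 to 3.93 in WT, and all 8 were called higher in KO. The part of basal cell transcripts in the values below was not tested. Of 7 endometrial epithelial markers, Hoxa10 and Hoxa11 had at most 4 reads in any group of either genotype. Esr1, Pgr and Pax8 were called lower in KO in both comparisons. Over all libraries of a genotype, Pgr averaged 25.6 CPM in KO and 101 in WT, and Pax8 72.6 and 232. Foxa2 was called higher in both, at 62.5 CPM in KO and 2.59 in WT, and Wnt7a higher with estrogen only. A sum of 5 multiciliated cell markers was 509 to 928 CPM in KO and 2.40 to 3.10 in WT. In bulk RNA, fewer cells of a type and less RNA per cell cannot be told apart.

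Between the genotypes, 26 of the 33 tested genes differed with estrogen (12 higher and 14 lower in KO) and 26 without (11 higher and 15 lower), by edgeR's quasi-likelihood test at an adjusted p under 0.05 over all tested genes. Over all 16465 genes, 70.8% were called with estrogen (36.7% higher and 34.1% lower) and 71.7% without (37.7% higher and 34% lower). In both comparisons and with the same sign, 24 of 33 were called (11 higher and 13 lower), against 64.9% of all genes (34.1% higher and 30.8% lower), and 17 of the 33 were called and differed by at least 2-fold in both, against 35.6% of all genes. The median log2 fold change of the 33, KO over WT, was -0.19 with estrogen and -0.34 without, while that of all tested genes was 0.02 and 0.04. For 23 of the 33 the 6 KO libraries did not overlap the 6 WT libraries, with 11 above and 12 below, a pattern shared by 65% of all genes (34% above and 31% below). The share of laminin and integrin genes that was called was thus close to the share of the whole transcriptome. Same-numbered KO libraries with and without estrogen deviated together. The 6 KO libraries may therefore not be 6 separate cultures, and the comparisons with and without estrogen are not independent of each other. Itga4, Itga11, Itgax, Itgb2 and Itgb7 entered the test mainly through their KO reads, so their calls are not separate support for the count.

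**Figure D1:**
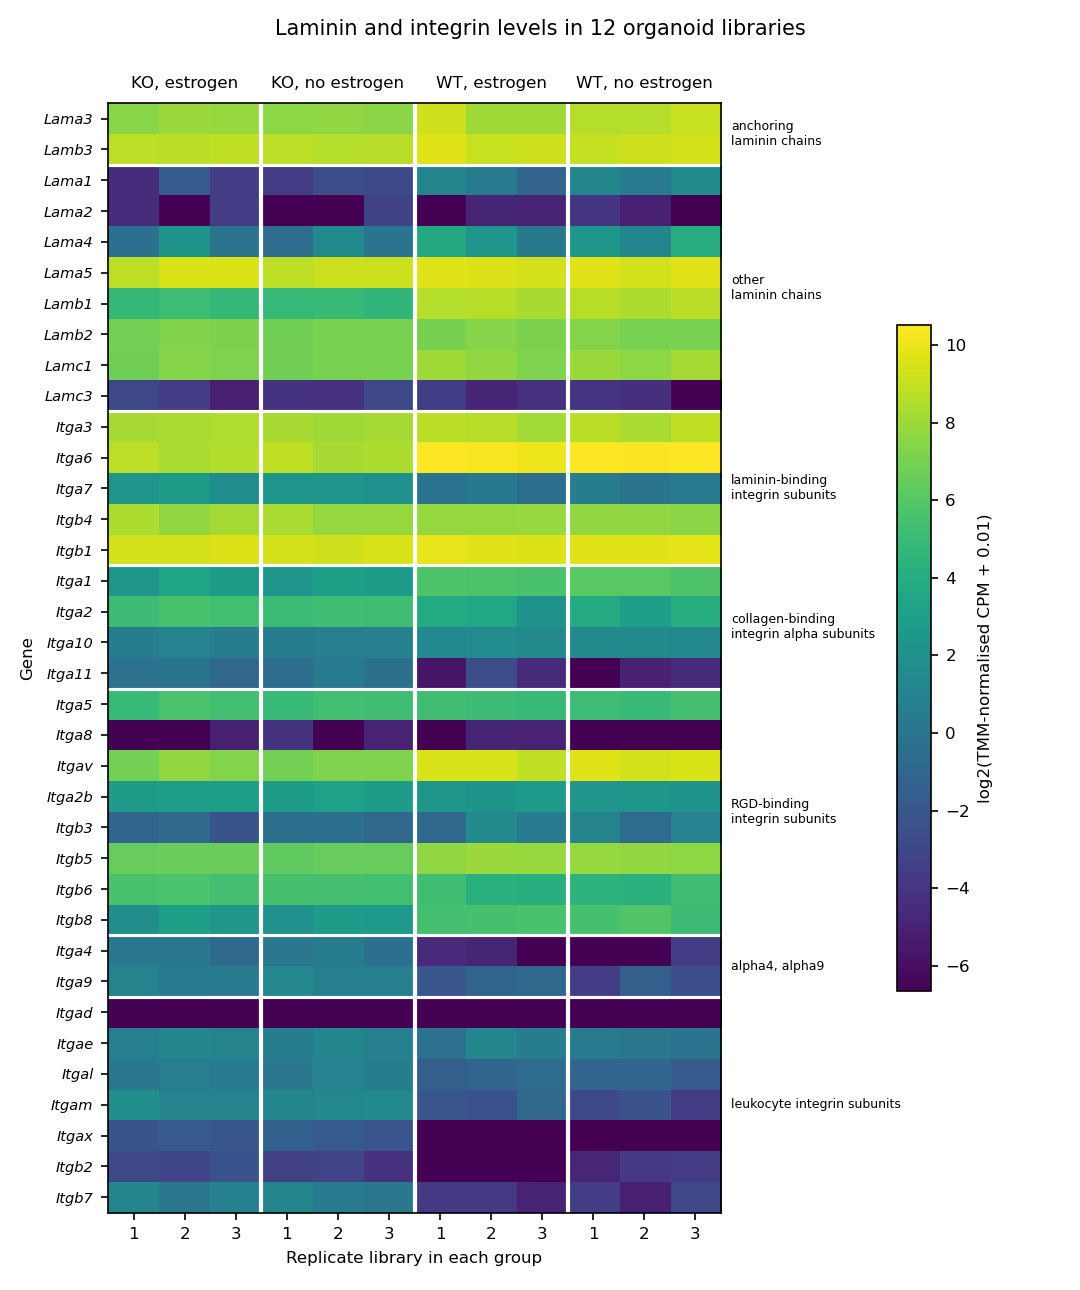
Heat map of 36 of the 37 laminin and integrin genes (rows, in order of role) in the 12 libraries (columns, 3 per group), coloured by log2 of TMM-normalised CPM + 0.01. Lamb1, Itga6, Itgav, Itga1 and Itgb8 were darker in the 6 KO columns than in the 6 WT columns, Itga2, Itga4 and Itgb7 were brighter, and Itgad was dark in every column because it had 0 reads.

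Of the promoters in a RefSeq table of the older mouse build GRCm38.p6, 26 belonged to 23 of the 37 genes. Those shown here belong to 2 pairs of related subunits whose transcripts differed in opposite directions. Itga2 and Itga1, which encode alpha subunits of collagen receptors, are protein-coding neighbours on the minus strand of chromosome 13. Itgb6 and Itgb8 encode the beta subunits that pair with alphaV to release active TGF-beta from its latent complex. Each window holds 250 bases before and 50 after the annotated start, is written 5′ to 3′ on the gene's strand, and has capitals only where the GC box GGGCGG was found on either strand. The window of Itga2 was chr13:114932051-114932350, that of Itga1 chr13:115101915-115102214, that of the upstream start of Itgb6 chr2:60722554-60722853 and that of Itgb8 chr12:119238227-119238526, all on the minus strand.
Itga2: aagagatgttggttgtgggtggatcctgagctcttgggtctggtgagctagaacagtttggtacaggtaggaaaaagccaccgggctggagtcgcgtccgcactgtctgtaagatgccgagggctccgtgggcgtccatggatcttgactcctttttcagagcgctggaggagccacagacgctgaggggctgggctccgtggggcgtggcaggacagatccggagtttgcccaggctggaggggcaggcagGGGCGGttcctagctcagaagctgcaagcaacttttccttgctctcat
Itga1: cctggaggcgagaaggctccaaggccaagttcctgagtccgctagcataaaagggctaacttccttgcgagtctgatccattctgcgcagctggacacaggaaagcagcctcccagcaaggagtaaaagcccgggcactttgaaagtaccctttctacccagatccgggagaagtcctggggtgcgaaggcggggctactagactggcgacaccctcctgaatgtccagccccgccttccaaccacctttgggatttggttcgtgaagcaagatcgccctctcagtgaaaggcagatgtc
Itgb6: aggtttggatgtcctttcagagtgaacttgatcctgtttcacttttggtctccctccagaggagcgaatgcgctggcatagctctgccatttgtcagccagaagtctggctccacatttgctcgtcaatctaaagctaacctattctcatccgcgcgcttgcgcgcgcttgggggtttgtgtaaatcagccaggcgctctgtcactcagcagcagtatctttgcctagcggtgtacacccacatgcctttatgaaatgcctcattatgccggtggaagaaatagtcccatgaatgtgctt
Itgb8: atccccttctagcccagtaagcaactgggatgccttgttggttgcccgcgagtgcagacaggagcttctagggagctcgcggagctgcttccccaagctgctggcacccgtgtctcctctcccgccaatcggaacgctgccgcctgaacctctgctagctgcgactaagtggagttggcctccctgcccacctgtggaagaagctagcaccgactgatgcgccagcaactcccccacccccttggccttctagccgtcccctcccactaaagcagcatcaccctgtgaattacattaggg

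The Itga2 window held 1 GC box, at position 3 counted from 1 at the annotated start, and the other 3 windows held none. Of the 26 promoters of laminin and integrin genes 12 held this box, against 35.7% of all 32851 promoters of the same length in the table. The AP-1 motif TGANTCA, searched on both strands, was in 3 of the 26 (those of Itga3, Itga9 and Itgax) and in 7.81% of all promoters. The palindromic estrogen response element was in none of the 26 and in 0.07% of all promoters, and the short estrogen receptor motif AAGGTCA was in none of the 26 and in 4.72% of all. The letters TATAAA were in none of the 26 and in 13.6% of all promoters. The core of the motif of the p53 family, to which p63 of basal cells belongs, was in 22 of the 26 and in 70.2% of all promoters. These matches describe the letters of the windows only.

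The alpha3 and beta3 chains, which belong to the anchoring laminin of epithelia, were lower in KO organoids, and both were called in both comparisons. Lama3, the alpha3 chain, had 181, 244 and 232 CPM in KO with estrogen and 198, 208 and 182 in KO without. Its WT libraries had 624, 272 and 264 CPM with estrogen and 389, 395 and 547 without. All KO libraries lay below all WT libraries, although 2 of the WT libraries with estrogen were close to the KO range. On the log2 scale KO over WT was -0.82 ± 0.29 (SE, edgeR adjusted p = 0.0274) with estrogen and -1.18 ± 0.30 (edgeR adjusted p = 0.00415) without. Lama3's difference with estrogen rested on WT library 1, without which it was -0.29 with an edgeR adjusted p of 0.138. The call was also lost without KO library 1 (edgeR adjusted p = 0.0908) or KO library 3 (edgeR adjusted p = 0.0563). Scaling by library size alone lost it too (edgeR adjusted p = 0.0778). So did the fit of only the compared libraries (edgeR adjusted p = 0.0809) and a replicate block (edgeR adjusted p = 0.0592). Lamb3, the beta3 chain, had 444, 424 and 462 CPM in KO with estrogen and 443, 392 and 411 in KO without. WT values were 826, 538 and 584 CPM with estrogen and 519.7, 581 and 684 without. Its groups did not overlap either, and it was 1.47-fold lower in KO with estrogen (edgeR adjusted p = 0.00708) and 1.43-fold lower without (edgeR adjusted p = 0.0098), although neither call was kept when counts were scaled by library size alone (edgeR adjusted p = 0.0506 and 0.11). In both chains, WT library 1 with estrogen was the highest library of its group.

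The other laminin chains differed more unequally, and Lamb1 stood apart among them. Lamb1, the beta1 chain of the broadly expressed laminins, had 27.8, 36.9 and 28.2 CPM in KO with estrogen and 28.8, 31.2 and 25.3 in KO without. The WT libraries had 396, 406 and 306 CPM with estrogen and 418, 335 and 437 without. The lowest WT library was thus far above the highest KO library. Lamb1 was 11.9-fold lower in KO with estrogen (log2 -3.58 ± 0.17, edgeR adjusted p = 1.89e-08) and 13.9-fold lower without (log2 -3.80 ± 0.17, edgeR adjusted p = 1.15e-08). Lama1, the alpha1 chain of the early embryonic basement membrane, was scarce in every library, with 0.0344, 0.289 and 0.0760 CPM in KO with estrogen and 0.0721, 0.160 and 0.135 in KO without. Its WT libraries had 2.24, 1.30 and 0.428 CPM with estrogen and 2.38, 1.25 and 3.00 without. Its KO libraries held 44 reads in all with estrogen and 32 without, against 363 and 570 in WT. KO over WT on the log2 scale was -3.30 ± 0.76 with estrogen (edgeR adjusted p = 0.00235) and -4.15 ± 0.79 without (edgeR adjusted p = 6.52e-04). With estrogen that value was -4.57 without KO library 2 and -2.68 without WT library 1. Lamc1, the gamma1 chain, averaged 143 ± 28.8 CPM in KO with estrogen and 126 ± 9.93 in KO without, against 210.1 ± 58.0 in WT with estrogen and 245 ± 55.9 in WT without (SD, n = 3 each). Its KO and WT libraries overlapped, and its call with estrogen (edgeR adjusted p = 0.0429) was lost under 15 of 19 other settings, while the call without estrogen (edgeR adjusted p = 0.00268) was not.

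Lama5, Lamb2, Lama4, Lama2 and Lamc3 were not called in both comparisons. Lama5, the alpha5 chain of mature epithelial basement membranes, averaged 649 ± 167 CPM in KO with estrogen and 545 ± 78.2 in KO without, against 758 ± 68.3 in WT with estrogen and 781 ± 122 in WT without (SD, n = 3 each). It passed the test without estrogen (log2 -0.52 ± 0.19, edgeR adjusted p = 0.0308) and did not pass it with estrogen (log2 -0.22 ± 0.19, edgeR adjusted p = 0.313). The call without estrogen was lost without WT library 1 or 3 or KO library 1 or 2, at edgeR adjusted p from 0.0505 to 0.112. Scaling by library size alone lost it too (edgeR adjusted p = 0.18). Lamb2, the beta2 chain, averaged 139.5 ± 17.4 CPM in KO with estrogen and 129.8 ± 10.9 in KO without, against 146 ± 20.8 in WT with estrogen and 145 ± 16.9 in WT without, which is within the spread of the libraries. Its log2 fold change was -0.06 ± 0.13 with estrogen and -0.16 ± 0.13 without (edgeR adjusted p = 0.672 and 0.291), and scaling by library size alone turned both signs. Lama4, the alpha4 chain of vessel and muscle basement membranes, averaged 2.15 ± 2.22 CPM in KO with estrogen and 1.55 ± 1.28 in KO without, against 6.43 ± 5.92 in WT with estrogen and 8.16 ± 7.52 in WT without. The libraries of single groups differed several-fold, and neither comparison passed (edgeR adjusted p = 0.182 with and 0.0591 without estrogen), but Lama4 passed without estrogen under 7 of 19 other settings, DESeq2 and the fit of only the compared libraries among them, at adjusted p from 0.0358 to 0.0486. With estrogen it passed under 1 of the 19, without KO library 2 (edgeR adjusted p = 0.0459). Lama2, the main alpha chain of muscle, had 12 reads in KO with estrogen and 8 in KO without. Its WT groups held 4 reads with estrogen and 6 without. Lamc3 had 24 and 19 reads in those KO groups, against 14 and 8 in the WT groups.

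Among the subunits that bind laminin, Itga6 was lower in KO while its hemidesmosome partner Itgb4 was not called. Itga6, which pairs with beta4 or beta1, had 444, 325 and 366 CPM in KO with estrogen and 463, 307 and 331.7 in KO without. WT libraries had 1466, 1220.0 and 1101 CPM with estrogen and 1439, 1396 and 1445 without. Every KO library was below every WT library, and the log2 fold change was -1.74 ± 0.17 with estrogen (edgeR adjusted p = 4.53e-06) and -1.96 ± 0.17 without (edgeR adjusted p = 1.73e-06). Itgb4, which pairs only with alpha6, had 337, 214 and 294 CPM in KO with estrogen and 330.1, 222 and 227 in KO without. The WT libraries had 222, 225 and 239 CPM with estrogen and 209, 209 and 182 without. The groups overlapped, and the log2 fold change was 0.30 ± 0.18 with estrogen (edgeR adjusted p = 0.149) and 0.38 ± 0.18 without (edgeR adjusted p = 0.0765). When counts were scaled by library size alone, which shifted the median of all genes by 0.19 with estrogen and 0.23 without, Itgb4 passed in both (edgeR adjusted p = 0.0292 and 0.00953). It also passed without KO library 2 of the compared group, with estrogen (edgeR adjusted p = 0.0242) and without (edgeR adjusted p = 0.0471). The comparison without estrogen passed too with DESeq2 (DESeq2 adjusted p = 0.0380) and with size factors of the DESeq2 type, RLE (edgeR adjusted p = 0.0453). It passed as well when KO library 2 with estrogen was left out of the fit (edgeR adjusted p = 0.0362). KO library 1 had the highest Itgb4 and Itga6 CPM of its group both with and without estrogen, and it also had the largest sum of basal cell markers, 10961 CPM with and 10670.4 CPM without estrogen. The part of these markers in the integrin values was not tested.

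Itga3, the alpha3 subunit that pairs with beta1 on the anchoring laminin, had 309, 323 and 352 CPM in KO with estrogen and 313, 273 and 293 in KO without. In WT organoids it had 424, 414 and 284 CPM with estrogen and 437, 329 and 475 without. WT library 3 with estrogen fell inside the KO range, and Itga3 passed the test without estrogen (log2 -0.50 ± 0.16, edgeR adjusted p = 0.017) but not with it (log2 -0.19 ± 0.16, edgeR adjusted p = 0.313). Without WT library 3 it passed with estrogen (edgeR adjusted p = 0.0437). The call without estrogen was lost without WT library 1 or 3 or KO library 2, at edgeR adjusted p from 0.0533 to 0.0697. Scaling by library size alone lost it too (edgeR adjusted p = 0.146). Itgb1, the beta1 subunit shared by most laminin and collagen receptors and by the fibronectin receptor, had 650.4, 671 and 771 CPM in KO with estrogen and 689, 617 and 705 in KO without. The values in WT were 949, 816 and 794 CPM with estrogen and 822, 808 and 913 without. Its groups did not overlap, and the difference was small, at 1.22-fold lower in KO with estrogen (edgeR adjusted p = 0.0244) and 1.26-fold lower without (edgeR adjusted p = 0.0114). Under scaling by library size alone both of its calls were lost (edgeR adjusted p = 0.323 and 0.301). The call with estrogen was also lost without WT library 1 or KO library 1 or 2, at edgeR adjusted p from 0.0665 to 0.108. DESeq2-type size factors, RLE, lost it too (edgeR adjusted p = 0.0536), as did the fit of only the compared libraries (edgeR adjusted p = 0.0723). Itga7, a laminin receptor subunit best known from muscle, went the other way at a low level, with 5.24, 6.46 and 3.31 CPM in KO with estrogen and 5.17, 5.08 and 3.87 in KO without. WT libraries had 0.925, 1.21 and 0.732 CPM with estrogen and 1.45, 0.960 and 1.43 without. It was 5.23-fold higher in KO with estrogen (edgeR adjusted p = 2.49e-05) and 3.68-fold higher without (edgeR adjusted p = 1.27e-04). A sum of 7 smooth muscle markers was 1.94 to 2.73 CPM in KO and 2.73 to 3.54 in WT, most of it Tagln in WT. Of the 5 tested, Tagln was called lower in both comparisons, while Myh11 and Lmod1, both under 1 CPM, were called higher in both. Acta2 averaged 0.829 CPM in KO and 0.294 in WT. It was called higher without estrogen only (edgeR adjusted p = 0.0109, and 0.223 with estrogen), and Cnn1 was called in neither. The part of muscle transcripts in the Itga7 values was not tested. Itga7 overlaps Mettl7b in the RefSeq annotation of GRCm38, and its counts lack reads shared with that gene.

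**Figure D2:**
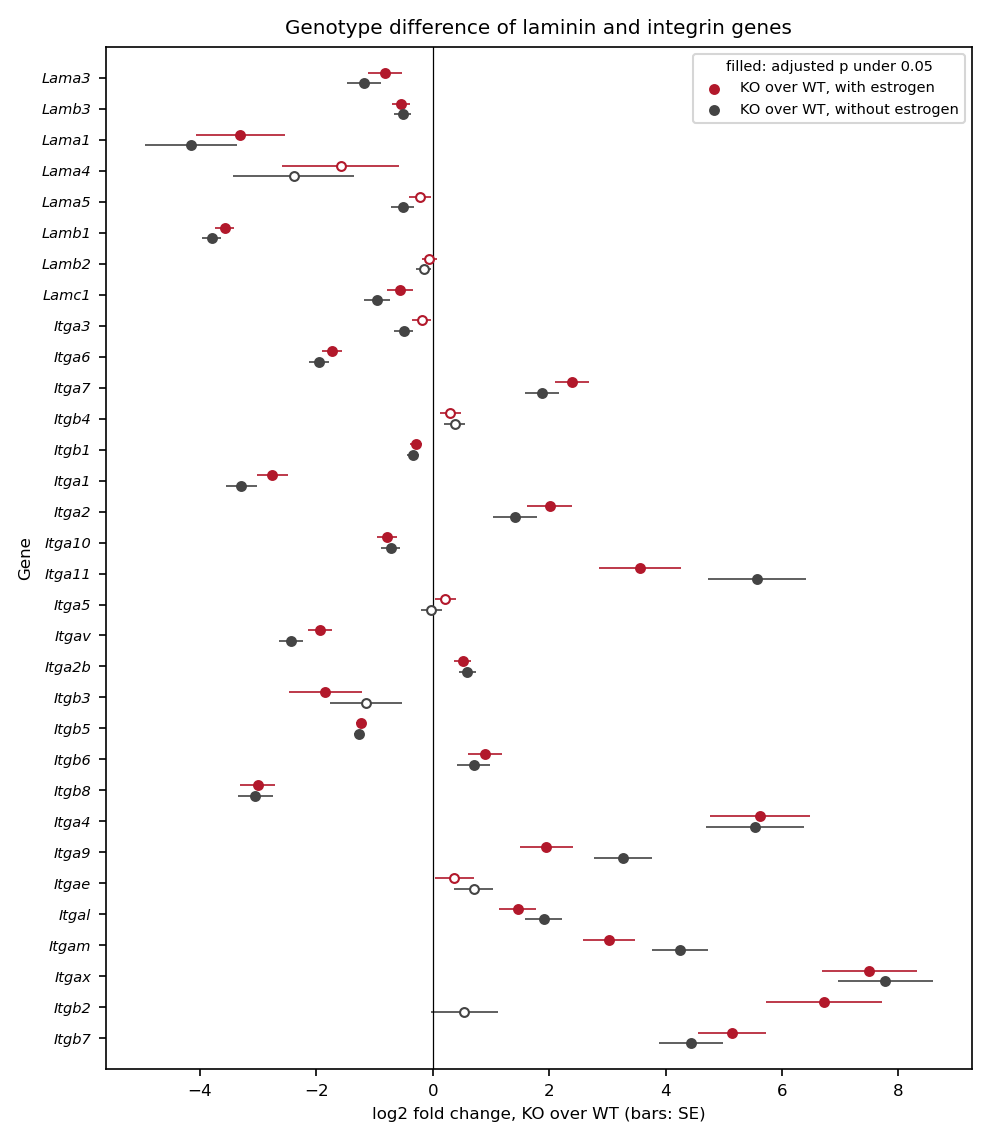
Log2 fold change of 32 of the 33 tested laminin and integrin genes (rows), KO over WT, with and without estrogen, where bars are 1 SE of the edgeR fit and filled points have an adjusted p under 0.05. Values ran from -4.15 for Lama1 to 7.77 for Itgax, and the fitted values of Itgax and of Itgb2 with estrogen depend on the fit because their WT groups had 0 reads.

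Of the 4 tested collagen receptor subunits, Itga2 and Itga11 were higher and Itga1 and Itga10 lower in KO in both comparisons. Over all genes, 34.1% were called higher and 30.8% lower in both, so a mix of directions was also the pattern of all genes. Itga11 entered the test mainly through its KO reads. Itga2, the alpha2 subunit that pairs with beta1 on fibrillar collagens, had 35.3, 49.0 and 39.3 CPM in KO with estrogen and 32.9, 37.8 and 35.9 in KO without. The WT libraries had 14.1, 12.2 and 4.37 CPM with estrogen and 14.3, 8.04 and 17.5 without. All KO libraries were above all WT libraries, by 4.02-fold with estrogen (log2 2.01 ± 0.39, edgeR adjusted p = 7.72e-04) and 2.67-fold without (log2 1.42 ± 0.38, edgeR adjusted p = 0.00607). Itga1, the alpha1 subunit that prefers the collagen IV of basement membranes, had 5.41, 11 and 6.59 CPM in KO with estrogen and 4.99, 8.12 and 6.50 in KO without. In WT organoids it had 54.5, 53.7 and 47.4 CPM with estrogen and 70.3, 68.9 and 52.8 without. All its KO libraries were below all its WT libraries, by 6.75-fold with estrogen (log2 -2.76 ± 0.26, edgeR adjusted p = 3.54e-06) and 9.79-fold without (log2 -3.29 ± 0.27, edgeR adjusted p = 1.01e-06). Per kilobase of exon, the ratio of Itga2 to Itga1 within a library was 11.6 to 17.2 in KO and 0.241 to 0.866 in WT, a measure that does not depend on how libraries are scaled. Itga1 overlaps Pelo, which lies inside it in the annotation.

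Itga10, a collagen receptor subunit of cartilage, had 1.47, 1.91 and 1.52 CPM in KO with estrogen and 1.44, 1.63 and 1.73 in KO without. The values in WT were 2.60, 3.15 and 2.72 CPM with estrogen and 2.7, 2.64 and 2.61 without. It was 1.73-fold lower in KO with estrogen (edgeR adjusted p = 0.00138) and 1.65-fold lower without (edgeR adjusted p = 0.00242), with no overlap. Itga11, the collagen receptor subunit of fibroblasts, stayed below 1 CPM on average in each group, with 262 reads in KO with estrogen and 249 in KO without. Its WT groups held 17 reads with estrogen and 5 without. It was called higher in both comparisons (edgeR adjusted p = 8.80e-04 with and 1.11e-04 without estrogen), with log2 fold changes of 3.56 ± 0.71 and 5.57 ± 0.84 that were 5.09 without WT library 2 with estrogen and 6.26 without WT library 3 without estrogen. A sum of 9 stromal fibroblast markers was 6.64 to 11 CPM in KO and 2.47 to 5.24 in WT, and 1 of the 6 tested, Vim, was called higher in both. Vim carried the KO sum, at 5.48 ± 0.272 and 6.73 ± 0.952 CPM in KO with and without estrogen, against 0.308 ± 0.0585 and 0.122 ± 0.0546 in WT. The collagen and proteoglycan genes of the list (Col1a1, Col1a2, Col3a1, Dcn and Lum) had lower means in KO, and of these Dcn was called lower with estrogen (edgeR adjusted p = 0.0146). The part of stromal transcripts in the Itga11 counts was not tested.

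The integrins that recognise the RGD sequence of fibronectin, vitronectin and latent TGF-beta shifted in their beta subunits. Itgav, the alphaV subunit common to most of them, had 124, 211 and 161 CPM in KO with estrogen and 119, 144 and 144 in KO without. The WT libraries had 711, 715 and 479 CPM with estrogen and 806, 656 and 749 without. It was lower in KO with no overlap, with a log2 fold change of -1.94 ± 0.21 with estrogen (edgeR adjusted p = 8.24e-06) and -2.44 ± 0.21 without (edgeR adjusted p = 1.45e-06). Itgb5, an epithelial partner of alphaV, had 90.4, 98.2 and 102 CPM in KO with estrogen and 81.5, 92.2 and 91.1 in KO without. In WT organoids it had 204, 246 and 235 CPM with estrogen and 221, 215 and 198 without. The libraries of each group lay close together, and Itgb5 was 2.35-fold lower in KO with estrogen (edgeR adjusted p = 3.65e-07) and 2.40-fold lower without (edgeR adjusted p = 2.73e-07). Itgb8 had 3.61, 8.16 and 5.35 CPM in KO with estrogen and 3.94, 6.73 and 6.04 in KO without. The values in WT were 44.8, 45.0 and 47.7 CPM with estrogen and 45.9, 57.2 and 35.4 without. Itgb8 was 8.03-fold lower in KO with estrogen (log2 -3.00 ± 0.30, edgeR adjusted p = 5.20e-06) and 8.28-fold lower without (log2 -3.05 ± 0.30, edgeR adjusted p = 4.42e-06).

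Itgb6, the other TGF-beta activating partner of alphaV, lay higher in KO, at 46.7 ± 3.79 CPM with estrogen and 43.3 ± 2.88 without, against 25.0 ± 10.7 in WT with estrogen and 26.6 ± 10.1 in WT without (SD, n = 3 each). The 6 KO libraries ran from 40.2 to 50.02 CPM and the 6 WT libraries from 18.2 to 38.3. The edgeR adjusted p was 0.0159 with estrogen and 0.0471 without, and at least 1 of these calls was lost under 12 of 19 other settings. Per kilobase of exon, the ratio of Itgb6 to Itgb8 was 9.53 to 20.4 in the KO libraries and 0.549 to 1.68 in the WT libraries. Itga2b, the platelet alphaIIb subunit, had 7.05, 7.84 and 8.03 CPM in KO with estrogen and 6.64, 8.88 and 6.99 in KO without. WT libraries had 5.53, 4.67 and 5.85 CPM with estrogen and 4.93, 5.35 and 4.66 without. It was 1.43-fold higher in KO with estrogen (edgeR adjusted p = 0.00769) and 1.51-fold higher without (edgeR adjusted p = 0.00336). A sum of 4 platelet markers was 1.35 to 2.59 CPM in KO and 6.86 to 19.4 in WT, where Ppbp made up most of it. Ppbp and Pf4 were called lower in KO in both comparisons, and Gp9 and Gp1bb, both under 1 CPM, were called higher. The part of platelet transcripts in the Itga2b values was not tested. Itgb3, which pairs with alphaV or alphaIIb, averaged 0.423 ± 0.196 CPM in KO with estrogen and 0.688 ± 0.149 in KO without, against 1.53 ± 1.15 in WT with estrogen and 1.54 ± 0.788 in WT without, and passed only with estrogen (edgeR adjusted p = 0.0216, which was 0.13 without WT library 2 and 0.0783 without KO library 3), although without estrogen it passed when WT library 2 was left out (edgeR adjusted p = 0.0437). Itga5, the alpha5 subunit of the fibronectin receptor, averaged 40.2 ± 9.61 and 36.7 ± 4.82 CPM in KO with and without estrogen, against 34.5 ± 4.18 and 37.2 ± 6.19 in WT, and passed in neither (edgeR adjusted p = 0.302 and 0.919). Itga8 had 2 reads in KO with estrogen and 6 in KO without, against 4 and 0 in the WT groups.

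The alpha4 and alpha9 subunits, which bind fibronectin, tenascin and cell surface counter-receptors, were low in KO and nearly silent in WT. Itga4 had 1.15, 1.18 and 0.598 CPM in KO with estrogen and 1.12, 1.45 and 0.811 in KO without. The WT libraries had 0.0308, 0.0242 and 0 CPM with estrogen and 0, 0 and 0.0695 without. The WT groups held 5 and 6 reads in all, against 328 in KO with estrogen and 292 in KO without, and Itga4 was called higher in both (edgeR adjusted p = 1.35e-04 with and 1.20e-04 without estrogen). Without WT library 3, its fitted log2 fold change without estrogen was 9.73 in place of 5.54, and without WT library 2 it was 4.92. With estrogen it was 6.23 without WT library 1, in place of 5.62. Itga9 had 2.0, 1.39 and 1.27 CPM in KO with estrogen and 2.50, 1.69 and 1.67 in KO without. In WT organoids it had 0.226, 0.460 and 0.518 CPM with estrogen and 0.0765, 0.354 and 0.162 without. It was 3.87-fold higher in KO with estrogen (edgeR adjusted p = 0.00268) and 9.64-fold higher without (edgeR adjusted p = 1.11e-04), and the log2 value without estrogen, 3.27, was 4.00 without WT library 2. Itga4 overlaps Cerkl in the annotation.

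The integrin subunits best known from leukocytes were low throughout and were higher in KO where called. Of the 6 tested, 4 were called higher in both comparisons and none lower, against 34.1% of all genes higher and 30.8% lower. Itgax, Itgb2 and Itgb7 entered the test mainly through their KO reads, so this count is not separate support for a direction. The summed level of the leukocyte subunits was 7.41 to 9.31 CPM in KO and 1.47 to 3.06 in WT. Itgb7, which pairs with alpha4 or alphaE, had 2.36, 1.10 and 1.78 CPM in KO with estrogen and 2.21, 1.28 and 1.09 in KO without. The values in WT were 0.0617, 0.0605 and 0.0225 CPM with estrogen and 0.0765, 0.0202 and 0.116 without. The KO libraries were all above 1 CPM and the WT libraries all at or below 0.116, a 35.2-fold difference with estrogen (edgeR adjusted p = 1.28e-05) and a 21.6-fold difference without (edgeR adjusted p = 2.69e-05). Itgam, the alphaM subunit of myeloid cells, had 3.77, 2.0 and 2.08 CPM in KO with estrogen and 2.38, 2.58 and 2.79 in KO without. WT libraries had 0.226, 0.194 and 0.541 CPM with estrogen and 0.127, 0.202 and 0.0695 without. It was 8.14-fold higher in KO with estrogen (edgeR adjusted p = 9.84e-05, log2 3.02, and 3.63 without WT library 3) and 19-fold higher without (edgeR adjusted p = 1.32e-05). Itgal, the alphaL subunit of lymphocytes, had 1.14, 1.63 and 1.27 CPM in KO with estrogen and 1.13, 1.94 and 1.53 in KO without. The WT libraries had 0.350, 0.484 and 0.631 CPM with estrogen and 0.484, 0.465 and 0.278 without. It was 2.76-fold higher in KO with estrogen (edgeR adjusted p = 0.0016) and 3.74-fold higher without (edgeR adjusted p = 2.75e-04).

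Itgax, the alphaX subunit of dendritic cells, had 80 reads in KO with estrogen and 75 in KO without, against 0 in both WT groups. Taking 3 reads over the group as the floor for a count of 0, Itgax in KO was at least 21.5-fold higher with estrogen and at least 25.4-fold higher without. Itgb2, the common beta2 partner of alphaL, alphaM and alphaX, had only 46 reads in KO with estrogen and 20 in KO without. Its WT groups held 0 reads with estrogen and 14 without. It was called with estrogen (at least 12.4-fold higher in KO, edgeR adjusted p = 2.39e-04) and not without (edgeR adjusted p = 0.413). Itgae, the alphaE subunit that binds E-cadherin, averaged 2.03 ± 0.308 and 1.83 ± 0.454 CPM in KO with and without estrogen, against 1.57 ± 0.740 and 1.13 ± 0.201 in WT, and did not pass (edgeR adjusted p = 0.338 and 0.0819), although without estrogen it passed under 5 of 19 other settings, DESeq2 among them, at adjusted p from 0.0284 to 0.048. Itgad had 0 reads in all 12 libraries, which allows up to 0.00902 CPM in KO with estrogen, 0.0116 in KO without, 0.0112 in WT with estrogen and 0.0114 in WT without. Markers of leukocytes were split. The summed level of 10 such markers was 101 to 188 CPM in KO and 256 to 474 in WT, most of it Cd68, a lysosomal protein gene that other cells also use, and of the 7 tested 1 was called higher and 3 lower in KO. The higher one, Coro1a, a leukocyte actin regulator, averaged 0.293 ± 0.116 and 0.325 ± 0.0791 CPM in KO with and without estrogen, against 0.0224 ± 0.00182 and 0.0222 ± 0.0232 in WT (edgeR adjusted p = 3.39e-04 and 2.57e-04). Ptprc, the pan-leukocyte marker CD45, had 4 reads in KO with estrogen and 0 in KO without, against 1496 and 1708 in the WT groups, and Csf1r of macrophages averaged 0.163 and 0.309 CPM in KO with and without estrogen, against 36.9 and 31.3 in WT. The part of leukocyte transcripts in the values of these subunits was not tested.

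The makeup of each chain class was compared within libraries per kilobase of exon, since CPM of genes of different length cannot be compared. The exon lengths came from another annotation than the counts, so ranks, shares and ratios between genes are approximate. Their comparison between genotypes uses the same lengths on both sides. Itgb1 had the highest level per kilobase of the 37 genes in both genotypes, at 151 to 189 CPM per kilobase in KO and 194 to 233 in WT. Itga6 came next in WT, at 122 to 162 CPM per kilobase. That range overlapped the 78.6 to 125 of Lamb3, although Itga6 was the higher of these genes in each WT library. In KO, Itga6 stood at 34.1 to 51.3 and came after Itgb1, Lamb3, Itga3 and Lama5. The KO ranges of Itga6, Itga3, Lama5 and Itgb4 overlapped, and that of Lamb3, 59.3 to 69.9, overlapped those of Itga3 and Lama5. The order of these genes in KO was thus not resolved beyond the spread. Among the laminin beta chains, Lamb1 made up 2.92% to 3.99% in KO and 21.5% to 28.5% in WT, Lamb3 68.7% to 75.1% in KO and 53.2% to 67.2% in WT, and Lamb2 21.6% to 27.4% in KO and 11.4% to 18.5% in WT. Each of these 3 pairs of ranges was separate. Lama5 and Lama3 together made up nearly all alpha chain transcripts, with Lama5 at 68.4% to 75.6% in KO and 54.2% to 72.9% in WT, ranges that overlapped.

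Among integrin alpha subunits, Itga6 made up 26.9% to 38.8% in KO and 46.9% to 54.0% in WT, and Itgav 8.40% to 14.7% in KO and 19.6% to 23.1% in WT. Itga3 took a larger share in KO, 41.5% to 45.7% against 20.1% to 25.3% in WT, while its CPM was not called higher. Itga2 made up 3.49% to 5.12% in KO and 0.269% to 0.748% in WT. Among the beta subunits, Itgb1 made up 66.2% to 72.8% in KO and 64.4% to 71.2% in WT, Itgb5 9.30% to 12.0% in KO and 17.3% to 22.4% in WT, and Itgb4 13.2% to 20.0% in KO and 8.26% to 11.3% in WT. The shares of Itgb4 and Itgb5 did not overlap between the genotypes and those of Itgb1 did. The ratio of Itgb4 to Itga6, the hemidesmosome pair, was 0.845 to 1.03 in KO and 0.162 to 0.279 in WT, and that of Lamb3 to Lamb1 was 17.2 to 24.6 in KO and 1.87 to 3.13 in WT. Itgb4 overlaps Galk1 in the annotation and its counts lack shared reads, so the ratio is read between genotypes only.

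**Figure D3:**
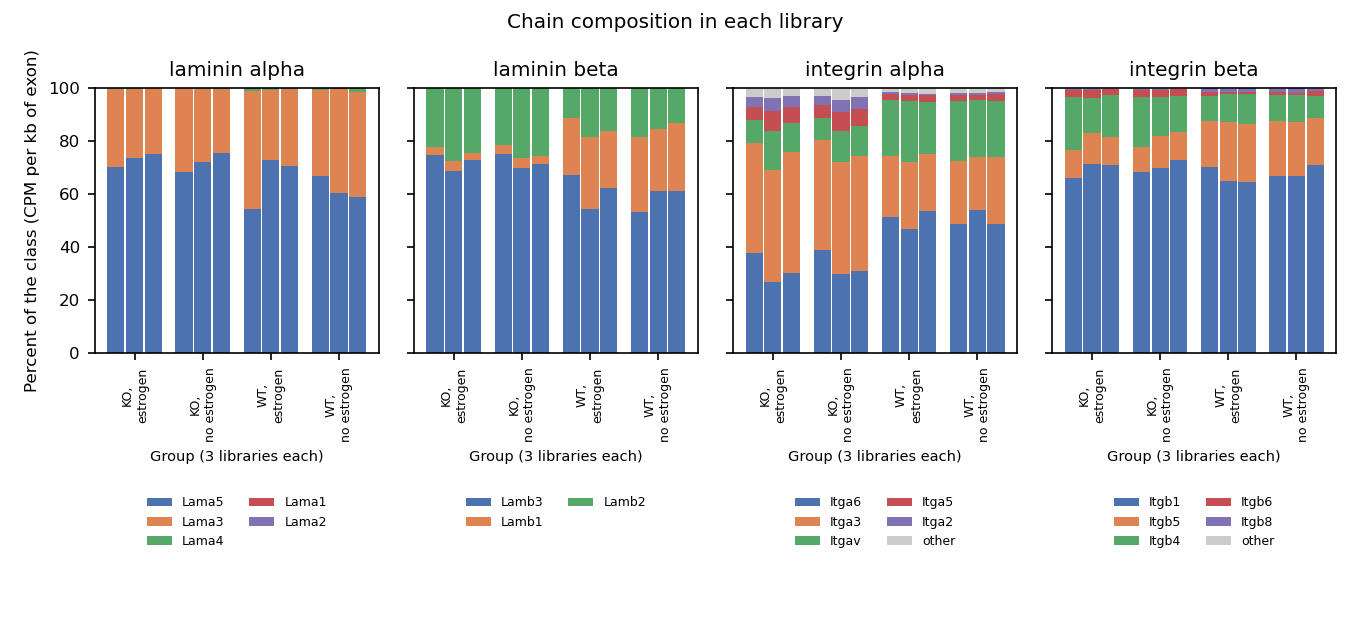
Stacked bars of the share of each chain within 4 classes in each of the 12 libraries, in percent of the class's CPM per kilobase of exon, with 3 bars per group. The Lamb1 segment filled 2.92% to 3.99% of the beta chains in KO and 21.5% to 28.5% in WT, and the Itga6 segment 26.9% to 38.8% of the integrin alpha subunits in KO and 46.9% to 54.0% in WT.

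Genes that build, bind or act with laminins and integrins were read from lists, and 57 of their 87 tested members (29 higher and 28 lower, 65.5%) were called in both comparisons, against 64.9% of all genes. Calls of single partner genes were not checked under other scalings, filters or sets of libraries. Of the 5 hemidesmosome partners, Col17a1 and Erbin were higher, Cd151 was lower, and Dst and Plec were not called in both. Col17a1, the transmembrane collagen of the hemidesmosome, had 944, 372 and 590.3 CPM in KO with estrogen and 832, 504 and 467 in KO without. The values in WT were 0.195, 0.0484 and 0.0225 CPM with estrogen and 0.0255, 0.0809 and 0.0463 without. It thus stood at 372 CPM or more in each KO library and held 25 and 14 reads in the WT groups (edgeR adjusted p = 3.75e-08 with and 3.01e-08 without estrogen). Erbin, which binds beta4, was 1.44-fold higher with estrogen (171 ± 11.9 against 119 ± 5.77 CPM, edgeR adjusted p = 7.50e-05) and 1.40-fold higher without (171 ± 12.2 against 122 ± 4.85 CPM, edgeR adjusted p = 1.46e-04). Cd151, the tetraspanin that holds laminin-binding integrins, was 1.54-fold lower with estrogen (116 ± 9.21 against 179 ± 17.9 CPM, edgeR adjusted p = 6.27e-05) and 1.41-fold lower without (114 ± 4.41 against 162 ± 8.93 CPM, edgeR adjusted p = 3.24e-04). Dst averaged 282 ± 42.5 and 315 ± 48.4 CPM in KO with and without estrogen, against 189.7 ± 45.1 and 239.8 ± 37.6 in WT, and passed with estrogen only (edgeR adjusted p = 0.021 and 0.0884). Plec, the plakin that links beta4 to keratin, averaged 378 ± 1.47 and 362 ± 10.4 CPM in KO, against 369 ± 77.8 and 402 ± 43.3 in WT, and passed in neither.

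Of the other basement membrane genes, 12 of the 20 tested were higher in KO, 3 were lower and 5 were not called in both. Over all genes, 34.1% were higher and 30.8% lower in both. Of the 22 listed genes, 7 averaged under 1 CPM in KO and 12 in WT. Fras1 and Smoc2, with 0 reads in both WT groups, entered the test only through their KO reads. The count is therefore not separate support for a direction. Col7a1, the anchoring fibril collagen of skin, was 6.06-fold higher with estrogen (19.1 ± 4.80 against 3.15 ± 0.524 CPM, edgeR adjusted p = 1.81e-06), and 5.93-fold higher without (20.1 ± 3.89 against 3.39 ± 0.598 CPM, edgeR adjusted p = 1.80e-06). Col15a1 averaged 9.75 ± 1.10 and 12.0 ± 1.68 CPM in KO with and without estrogen, against 0.11 ± 0.0559 and 0.147 ± 0.0863 in WT (edgeR adjusted p = 1.07e-07 and 8.97e-08). Col4a5, a collagen IV chain, averaged 55.6 ± 7.89 and 51.5 ± 6.41 CPM in KO, against 17.4 ± 1.10 and 14.6 ± 1.47 in WT (edgeR adjusted p = 5.90e-07 and 2.93e-07), and Col4a1, the ubiquitous chain, averaged 1.78 ± 1.09 and 2.11 ± 1.16 CPM in KO, against 0.410 ± 0.280 and 0.418 ± 0.169 in WT (edgeR adjusted p = 0.0153 and 0.00952). Nid1, which bridges laminin gamma1 to collagen IV, was 3.98-fold and 3.92-fold higher with and without estrogen, at about 2 CPM in KO (edgeR adjusted p = 3.36e-04 and 3.54e-04). Ntn1, a laminin-related guidance protein, went the other way, with 7.61, 17.5 and 8.24 CPM in KO with estrogen and 7.90, 12.7 and 9.18 in KO without. WT libraries had 597, 708 and 732 CPM with estrogen and 630.3, 677 and 522 without. It was 61.0-fold and 61.4-fold lower in KO (edgeR adjusted p = 1.11e-07 and 9.67e-08).

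Among the 6 laminin receptors that are not integrins, Sdc1 and Mcam were higher, Bcam was lower and Dag1, Rpsa and Sdc4 were not called in both. The share called in both was 50%, against 64.9% of all genes. Sdc1, the main syndecan of epithelia, averaged 978 ± 184 CPM in KO with estrogen and 873 ± 158 in KO without, against 71.1 ± 3.67 and 59.0 ± 16.4 in WT (edgeR adjusted p = 1.08e-07 with and 7.93e-08 without estrogen). Bcam, a receptor for laminin alpha5, averaged 661 ± 65.0 and 536 ± 42.1 CPM in KO with and without estrogen, against 1964 ± 425 and 1444 ± 219.8 in WT (edgeR adjusted p = 6.26e-06 and 1.19e-05). Mcam, a receptor for laminin alpha4, averaged 23.8 ± 6.77 and 23.3 ± 5.94 CPM in KO, against 0.590 ± 0.453 and 0.465 ± 0.160 in WT (edgeR adjusted p = 4.41e-06 and 3.11e-06). Dag1, the dystroglycan gene, averaged 265 ± 22.6 and 261 ± 7.43 CPM in KO, against 310.4 ± 44.7 and 282 ± 29.0 in WT (edgeR adjusted p = 0.0935 and 0.386).

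Inside the cell, 12 of the 29 tested genes of the integrin adhesion complex were lower in KO, 4 were higher and 13 were not called in both. The share called in both was 55.2%, against 64.9% of all genes (30.8% lower and 34.1% higher). The lower genes of the complex held core linkers and kinases. Ilk, the integrin-linked kinase, averaged 44.8 ± 0.379 and 47.9 ± 2.76 CPM in KO with and without estrogen, against 109 ± 5.22 and 109 ± 1.95 in WT (edgeR adjusted p = 1.68e-08 and 2.37e-08). Tln1, talin, which switches integrins on, averaged 125 ± 1.22 and 121 ± 2.77 CPM in KO, against 279.7 ± 15.4 and 291 ± 19.3 in WT (edgeR adjusted p = 7.42e-08 and 3.46e-08). Ptk2, the focal adhesion kinase, averaged 57.5 ± 0.839 and 57.2 ± 3.35 CPM in KO, against 166 ± 19.5 and 179.7 ± 13.1 in WT, and its substrate Bcar1 averaged 37.0 ± 3.86 and 34.7 ± 2.71 CPM in KO, against 117 ± 5.98 and 119.6 ± 9.26 in WT (edgeR adjusted p under both conditions at most 8.48e-08). The 4 higher ones were Tln2, Fermt1, Tns4 and Actn1, named although no rule chose them. Of these, Fermt1, the kindlin of epithelia, averaged 147 ± 26.1 and 152 ± 19.6 CPM in KO, against 82.6 ± 0.615 and 83.1 ± 6.36 in WT, whereas Fermt2, the kindlin of most other tissues, averaged 21.0 ± 4.93 and 19.2 ± 3.74 CPM in KO, against 65.2 ± 11.8 and 75.9 ± 7.43 in WT. Fermt1 was called higher (edgeR adjusted p = 1.04e-04 and 7.15e-05) and Fermt2 lower (edgeR adjusted p = 2.38e-05 and 5.35e-06).

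Of the integrin ligands outside the basement membrane, 7 of 20 tested genes were higher and 8 lower in KO in both comparisons. That is 75% called, against 64.9% of all genes. Postn, periostin, which alphaV integrins bind, had 712, 859.8 and 1051 CPM in KO with estrogen and 799, 1011 and 1076 in KO without, against 0 in all 3 WT libraries with estrogen and 0, 0 and 0.0695 in WT without. With the floor of 3 reads for WT with estrogen, the gap there was at least 77794-fold, higher in KO. Icam1, a counter-receptor of the beta2 integrins, averaged 154 ± 13.3 and 159 ± 13.8 CPM in KO, against 5.17 ± 2.02 and 3.35 ± 0.364 in WT (edgeR adjusted p = 6.73e-08 and 2.98e-08). Tgfb2, whose latent complex lacks the RGD sequence, averaged 49.0 ± 13.9 and 46.0 ± 14.8 CPM in KO, against 1063 ± 248 and 1454 ± 204 in WT, and Tgfb3, whose complex carries it, averaged 19 ± 1.49 and 18 ± 1.86 CPM in KO, against 126 ± 17.4 and 128 ± 22.5 in WT. Both were called lower (edgeR adjusted p = 3.90e-07 and 1.74e-07 for Tgfb2, and 4.75e-08 and 3.24e-08 for Tgfb3). Of 7 proteases that cleave laminins, 2 were higher and 3 lower in KO in both comparisons (71.4% called, against 64.9% of all genes). Mmp7, matrilysin of uterine glands, averaged 2.85 ± 0.929 and 2.24 ± 0.529 CPM in KO, against 155 ± 37.8 and 175 ± 83.9 in WT (edgeR adjusted p = 7.71e-07 and 4.57e-07). Bmp1, which trims laminin chains, averaged 23.1 ± 4.05 and 22.5 ± 4.13 CPM in KO, against 67.8 ± 11 and 64.4 ± 13.8 in WT (edgeR adjusted p = 3.20e-05 and 3.61e-05). Mmp14, a membrane-bound protease, was 1.85-fold and 2.35-fold lower in KO (edgeR adjusted p = 3.07e-04 and 2.54e-05), and Mmp9, at under 1 CPM, was 14.8-fold and 8.64-fold higher (edgeR adjusted p = 8.11e-04 and 0.00214).

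**Figure D4:**
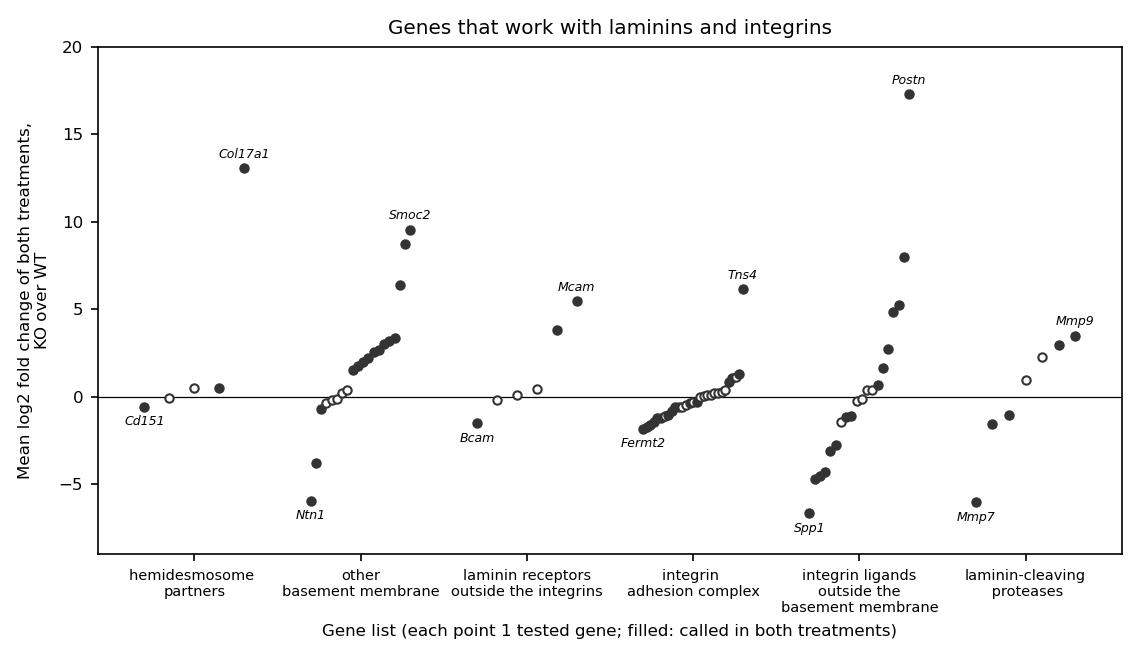
Log2 fold change of each tested gene of 6 lists (columns of points), KO over WT, as the mean of the comparisons with and without estrogen, with filled points called in both. Filled points of the adhesion complex lay mostly below 0 (12 lower and 4 higher) and those of the other basement membrane genes mostly above it (12 higher and 3 lower), and the heights of Postn, Smoc2 and Fras1 depend on the fit because WT groups had 0 reads. Over all tested genes, 34.1% were called higher and 30.8% lower in both comparisons.

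For estrogen, 0 of the 33 genes and 0 (0%) of all 16465 genes were called by edgeR in either genotype. At an unadjusted p under 0.05 there were 411 genes and 0 of the 33 in KO and 883 genes and 2 of the 33 (Itgam and Itgb2) in WT. DESeq2 called 20 genes in KO and 69 in WT, none of them a laminin or integrin. Because KO libraries of the same number deviated together, the KO comparison was also fitted with the number as a block, which called 0 genes in the fit over all libraries and, in an added fit of the 6 KO libraries alone, 486 genes, of which 0 were laminins or integrins, although 7 of the 33 had an unadjusted p under 0.05 there. Over the 18 genes above 10 CPM, the log2 fold change of estrogen over none ran from 0.03 (Itgb8) to 0.28 (Itgav) in KO and from -0.38 (Itga2) to 0.19 (Itgb4) in WT, with SE from 0.087 to 0.371 in KO and from 0.086 to 0.377 in WT. All 18 were above 0 in KO, and none passed its own test. The median over all tested genes in KO was -5.1e-05. The 18 genes were read in the same libraries with the same scaling, so their signs are not separate observations, and their shared direction was not tested. Over all genes, leaving out WT library 1 with estrogen gave 54 calls in WT and leaving out KO library 3 without estrogen gave 4 in KO. Itgb2 had the smallest p in WT (log2 -5.34 ± 1.14, unadjusted p = 0.00121, edgeR adjusted p = 0.568) and rested on 0 reads with estrogen and 14 without.

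The genotype difference itself was compared between the treatments by the interaction term, which called 0 of the 33 genes and 0 of 16465 in all by edgeR, with 726 genes and 1 of the 33 (Itgb2) at an unadjusted p under 0.05. DESeq2 called 27 genes for this term, none of them a laminin or integrin. Among the 18 genes above 10 CPM, the interaction ran from -0.08 (Itgb4) to 0.59 (Itga2) on the log2 scale, with SE from 0.122 to 0.529. Cases such as Itga3 and Lama5, which passed without estrogen and not with it, are therefore not shown to differ between treatments.

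**Figure D5:**
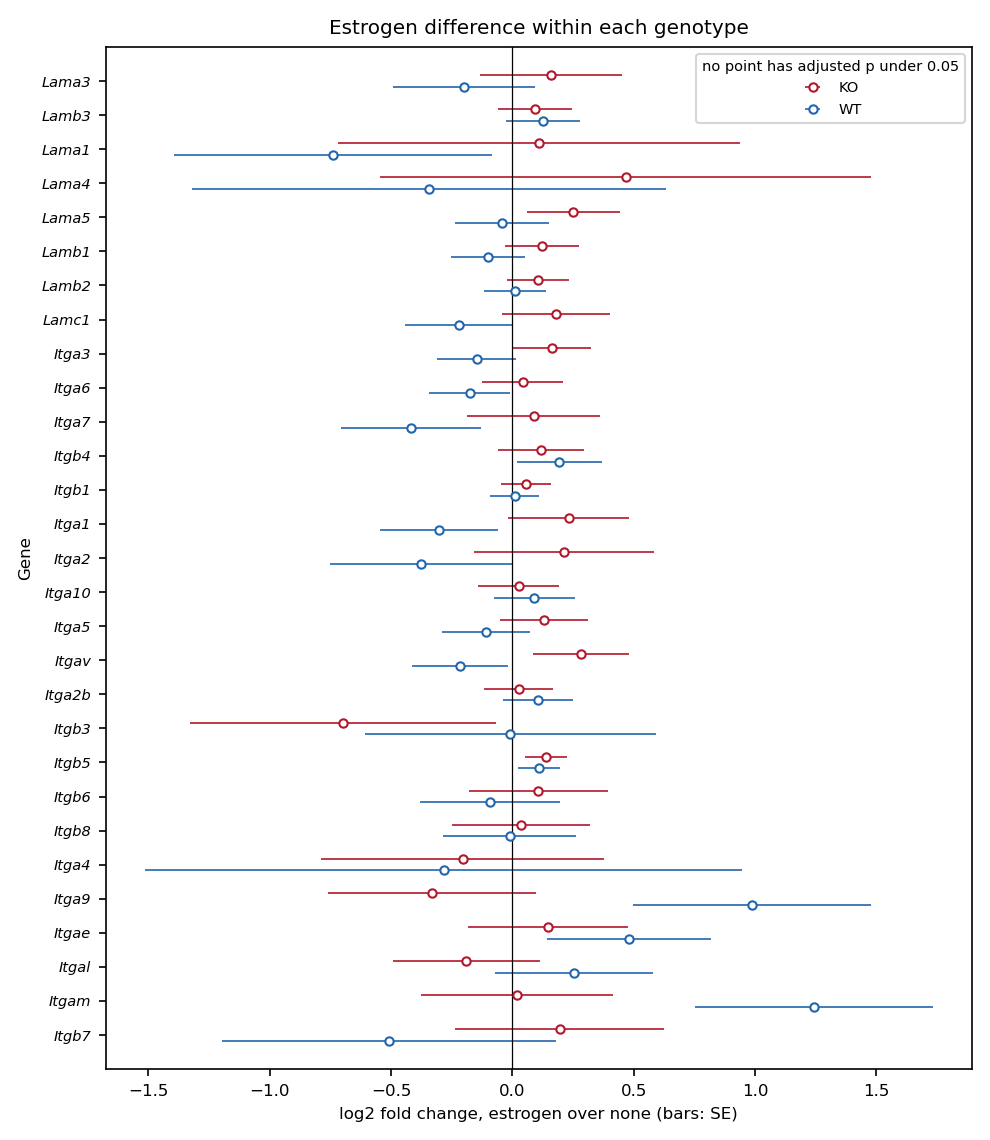
Log2 fold change of estrogen over no estrogen in KO and in WT for tested laminin and integrin genes that reached 1 CPM on average in some group, with bars of 1 SE. None has an adjusted p under 0.05, and the genes above 10 CPM lay between 0.03 and 0.28 in KO and between -0.38 and 0.19 in WT.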

How the data were processed

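The deposited files hold raw counts of reads per gene for each library. Counting was done by the authors with featureCounts 2.0.0, per the file headers, with each mate taken singly over refGene exons by symbol, without regard to strand and without multi-mapping reads or reads on overlapping genes. The submitters' processing notes name featureCounts 2.0.3, STAR 2.7.10b, GRCm39, Trim Galore 0.6.6 and FastQC 0.11.7. In a RefSeq GRCm38 table, 19 of the 37 genes overlapped another gene, so their counts lack shared reads and may hold antisense ones. No coordinates of GRCm39 are given.

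Genes were kept by filterByExpr (minimum count 10, minimum total 15), scaled by TMM and fitted by the robust quasi-likelihood model of edgeR 4.0.16 in R 4.3.3, with 4 groups in 1 fit and Benjamini-Hochberg adjustment over all genes tested. Each SE was the fold change over the root of its F value. The fit was also run on simulated counts with few genes changed, equally in both directions, with a single dispersion and no pairing of libraries. Most genes were called in these data, so that run does not check scaling or error rates here. Exon lengths came from GENCODE M21 on GRCm38. Floors of 3 reads cover counting error only, and reads are not independent molecules. Libraries of a group differed by more than counting error (chi-square per degree of freedom 48.8 to 321).

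Library values are given for up to 20 genes called in both genotype comparisons with a mean of at least 1 CPM in some group, by adjusted p, and for Lama3 and Lamb3 with Itga3, Itga6 and Itgb4. 1 gene that the rule also found is in the counts and is not reported here. From each partner list up to 4 called genes are named, plus Col17a1, Dst, Plec, Cd151, Dag1, Nid1 and Col4a1. The marker genes, Smoc2, Fras1, Tln2, Fermt1, Fermt2, Tns4 and Actn1 were named after their values were seen. The genes and lists were chosen with earlier results of these data known.

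Same-numbered KO libraries with and without estrogen deviated together (correlations of deviations from group means 0.568, 0.501 and 0.409), which pairs them by the rule that all exceed 0.1. WT libraries did not (-0.164, -0.157 and -0.39). Alternatives were DESeq2 1.42.0, other scalings and filters, a replicate block, fits of only the libraries compared, and leaving out each library. Calls of single partner and marker genes were not checked under them.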

Additional observations from a re-analysis of the deposited data

How the results depend on the processing

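Over 19 other settings, 20 to 24 laminin and integrin genes were called in both genotype comparisons, and leaving out each library in turn gave 20 to 24. Of the 24 genes, 17 were called under all 19, Itga11 and Itgax left only because a filter of 1 CPM removed them, and Lamc1, Itgb6, Itgb1, Lama3 and Lamb3 lost a call in some. Scaling by library size alone shifted the median of all genes by 0.19 and 0.23 (log2), made 65.3% of the calls over all genes higher in KO in place of 52.5%, and called 21 of the genes (12 higher and 9 lower). For 66 fold changes of single genes, 1163 values kept their direction and side of the threshold, 53 lost a call, 22 gained one and 9 changed sign, all of uncalled genes. Itga5 without estrogen was 0.026 with RLE factors, 0.027 with DESeq2 and 0.20 by library size alone, and leaving out single libraries gave -0.14 to 0.10. Lamb2 by library size alone was 0.12 with and 0.070 without estrogen, and leaving out single libraries with estrogen gave -0.15 to 0.055. The causes were not tested.

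For estrogen, 0 genes were called by edgeR in either genotype. In KO, DESeq2 called 20, leaving out single libraries called 0 to 4, the replicate block called 0, and the block in the 6 KO libraries alone, added after seeing the data, called 486. In WT, DESeq2 called 69, the replicate block 7 and leaving out single libraries 0 to 54. For the interaction, DESeq2 called 27, the replicate block 4 and leaving out single libraries 0 to 6. None of the calls by DESeq2 or with a block was a laminin or integrin. The replicate block lost the calls of Lama3, Lamc1 and Itgb6 between genotypes, whose libraries do not pair. Depth limits Lama2, Lamc3, Itga8, Itgad, Itgax and Itgb2, which had few or 0 reads in some groups.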
